A study of Mus musculus with 18 samples.

Results

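The immunoglobulin light chain variable (V) genes comprised every measured feature whose name starts with Igkv or Iglv, which gave 163 of the 32285 features in the gene expression matrices. Of these, 160 were kappa genes (Igkv) in 20 families on chromosome 6, and 3 were lambda genes (Iglv1, Iglv2 and Iglv3) on chromosome 16. They were read in plasma cells (at least 1 UMI, that is 1 counted RNA molecule, of Mzb1, Xbp1 and Derl3 and none of Cd3e) and in B cells (at least 1 UMI of Ms4a1 and Cd79a and none of Cd3e). Each antibody carries a light chain of either the kappa or the lambda class, and each B cell builds it once by joining a V gene to a joining segment, after which its plasma cell descendants transcribe that rearranged gene at a very high level. In the mouse most antibodies carry kappa. The V gene that a cell transcribes is therefore shared by all cells of its clone, and by other clones that chose the same gene. Gut plasma cells mostly secrete the IgA class.

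The study took cells from mice lacking the sialyltransferase gene St8sia6 (knockout, KO), from heterozygous (het) mice and from wild-type (WT) mice that retain the gene. CD45-enriched cells of the whole colon (epithelium and lamina propria together) and of the small bowel lamina propria were tagged with 1 hashtag antibody per genotype and read by 5′ single-cell RNA sequencing in 3 independent runs. Each run used 1 KO, 1 het and 2 WT mice, so that a WT value pools 2 animals. Neither the sex and age of the mice nor whether hets and WT were littermates is stated in the labels.

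A library number here stands for 3 consecutive barcode endings, and each ending was given the genotype of the hashtag with the highest median. The 9 combinations of 3 libraries and 3 genotypes per tissue are called sums below. No barcode was shared between the endings of a library, while 197 barcodes of the colon and 190 of the lamina propria occurred in more than 1 library. The assigned hashtag led in 95.7% to 100% of cells of the colon endings, but in the lamina propria it led in 55.7% of cells of the WT ending of library 3. Values were therefore also computed without that library. St8sia6 itself stood at 18.8, 25.9 and 38.5 CPM (UMIs scaled to the total of the sum) in the pooled KO, het and WT plasma cells of the colon and at 38.1, 55.1 and 67.7 in those of the lamina propria. The value was thus lowest in the cells labelled KO but not 0, and the labels do not give the deleted part of the gene.

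Unless stated otherwise, adjusted p-values below come from edgeR's quasi-likelihood test with Benjamini-Hochberg adjustment over all genes tested.

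The gates left 1288 plasma cells and 6749 B cells of the colon and 6493 plasma cells and 1026 B cells of the lamina propria. Cells that met both gates (311 in the colon and 198 in the lamina propria) were left out. Plasma cells of the colon had a UMI of Sdc1 in 91.7%, of Tnfrsf17 in 79.3% and of Ms4a1 in 0.16% of cells, and those of the lamina propria in 85.9%, 64.6% and 0.02%. The Ms4a1 values were set by leaving out cells of both gates and are no check of purity, since Cd79a was counted in 96.74% and 97.35%. Before that step 311 of 1599 colon and 198 of 6691 lamina propria cells of the plasma gate also met the B cell gate. B cells of the colon had Pax5 in 59.9% of cells, against 1.41% of T cells of the same libraries. B cells of the lamina propria had Pax5 in 65.1% of cells. Cd79b, a partner of the B cell receptor that the gates did not use, did not separate the classes: it was counted in 89.9% of plasma and 88.8% of B cells of the colon, and in 74.3% and 58.7% of those of the lamina propria. Jchain and Igha were also counted in 84.5% and 74.5% of colon T cells, and Igha in 99.7% of lamina propria T cells; T cells make neither, so that these are taken as background from free RNA. Epcam, an epithelial gene, was counted in 76.2% of colon plasma cells against 37.0% of T cells, whose median depth was lower, and its part in the values below was not tested.

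All 163 genes matched RefSeq on GRCm38.p6 (mm10), which annotates 104 as V segments and 59 as V segment pseudogenes. At least 1 UMI was counted for 137 of them in the plasma and B cells of the 2 tissues, and 26 had none. Plasma cells devoted 27.6% to 30.7% of their UMIs to light chain V genes in the 9 colon sums and 17.9% to 20.2% in the 9 lamina propria sums, so the ranges did not overlap. B cells of the colon gave 0.61% to 0.924% of their UMIs to these genes. The T cells of the same libraries, which make no light chain, gave 0.161% to 0.745% in the colon and 0.689% to 1.60% in the lamina propria. B cells of the lamina propria gave 1.21% to 2.40%, and there the ranges of B and T cells overlapped. The colon ranges met through 1 T cell sum, het library 2 at 0.745%, while the other 8 lay at 0.161% to 0.248%, below every B cell sum.

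A cell was assigned a V gene (a called cell in the figures) when that gene had at least 3 UMIs and at least 80% of the cell's light chain V UMIs, and use is the share of assigned cells that carry a gene. The rule assigned 1103 colon plasma cells and 4871 lamina propria plasma cells, which was 83.4% to 89.6% and 72.5% to 79.3% of those in each library. It assigned 972 colon B cells, which was 11.9% to 17.4% of each library against 2.63% to 3.10% of T cells. The median was 24 to 33 light chain V UMIs per B cell and 8 to 11 per T cell. A second rule, chosen after seeing this, assigned a gene whose UMIs exceeded what the T cell profile of the library gives (Poisson tail of 1e-05). It assigned 4428 colon B cells, or 65.0% to 67.5% of each library, against 19.6% to 22.8% of T cells, and both rules are given for B cells below. In the lamina propria the first rule assigned 1.38% to 4.35% of B cells and no sum reached 10 assigned cells, so no V gene use is given for them.

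Use in plasma cells was broad, with a few genes well ahead. Igkv10-96 (chr6:68631965-68632430) led in the colon, at 6.51% in the lowest, 8.88% in the median and 15.3% in the highest of the 9 sums (9.56% ± 2.76, SD, n = 9). Its lamina propria values were 3.87%, 7.09% and 11.6% (6.91% ± 2.29, SD, n = 9). The 2 ranges overlapped for most of their length, and the gene was among the assigned cells of all 18 sums. Igkv1-110 (chr6:68270527-68271265) came next, at 6.78% ± 3.30 in the colon and 6.77% ± 1.07 in the lamina propria (SD, n = 9 each). Igkv1-117 (chr6:68121091-68121825), from the same family, took 6.46% ± 3.68 and 4.92% ± 1.94. These 3 genes together held 22.8% of colon plasma cells and 18.6% of lamina propria plasma cells.

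Below them the order was flat. Igkv6-23, Igkv8-30, Igkv1-135, Igkv12-46, Igkv10-94, Igkv12-44 and Igkv14-111 completed the first 10 kappa genes of the colon in that order, starting from a mean of 3.64%, and each SD exceeded the step to its neighbour. In the lamina propria Igkv6-23 (3.23%), Igkv1-135 (3.06%), Igkv5-48 (2.85%), Igkv6-15 (2.81%), Igkv8-30 (2.65%), Igkv12-44 (2.36%) and Igkv12-46 (2.33%) followed among the kappa genes. The lambda gene Iglv1 had a mean use of 3.35% there, above Igkv6-23. In descending order of use, 13 genes covered 50% of assigned cells in the colon and 15 in the lamina propria. Assigned plasma cells were found for 79 genes in the colon and for 87 in the lamina propria. Of these, 12 and 45 occurred in all 9 sums, beside sums of 62 to 211 assigned cells in the colon and 374 to 932 in the lamina propria.

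**Figure D1:**
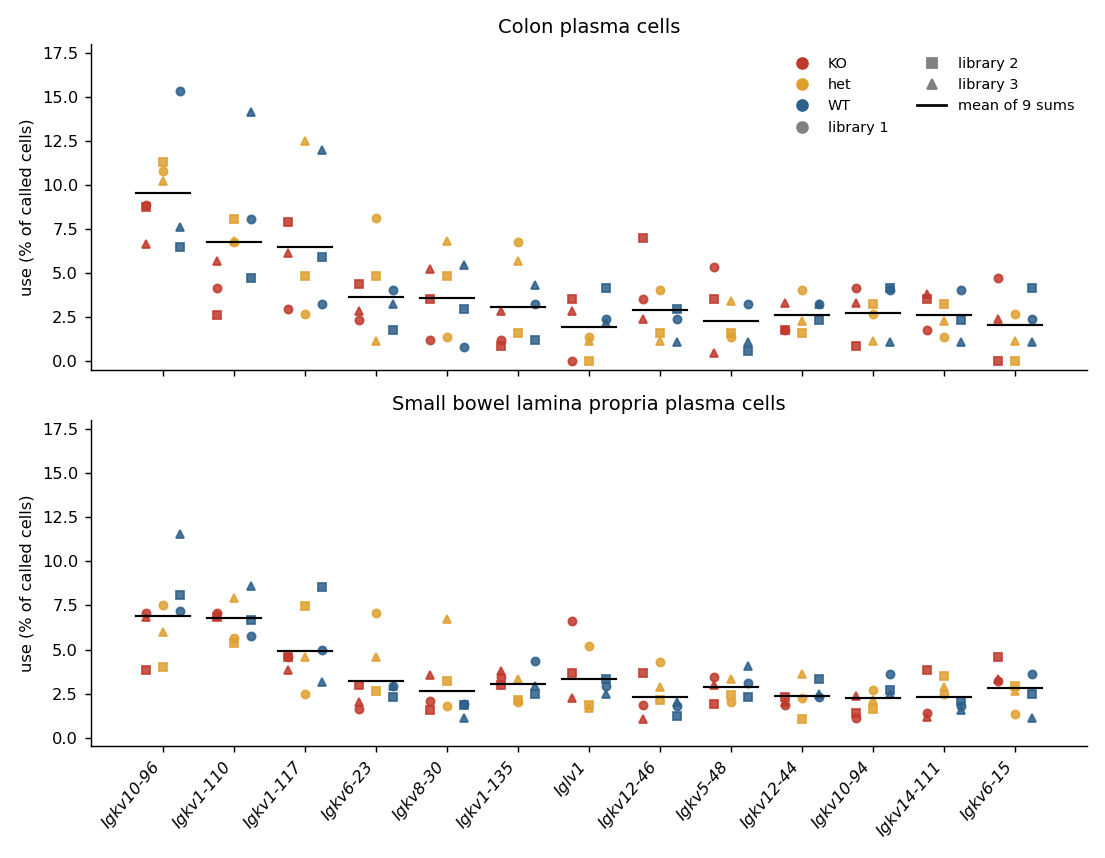
Use of the 13 light chain V genes that rank among the first 10 of either tissue, as the percentage of assigned plasma cells (vertical axis), with 1 point per library (marker shape) and genotype (colour) and a line at the mean of 9 sums. Igkv10-96, Igkv1-110 and Igkv1-117 lie above the rest in both tissues. The points of KO and WT overlap for all genes shown except Igkv10-96, Igkv10-94 and Igkv12-44 in the lamina propria. Among the named genes with assigned plasma cells, 3 did not overlap and 24 did in the lamina propria, and all 24 did in the colon. For 3 sums against 3 a two-sided exact permutation test cannot go below p = 0.1, and the share without overlap over all genes is not given. No conclusion about these genes is therefore drawn from the counts.

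Single sums held the highest values. The 5 genes with the highest use in any 1 plasma sum were Igkv10-96 (15.3% in colon WT library 1), Igkv1-110 (14.1% in colon WT library 3), Igkv1-117 (12.5% in colon het library 3), Igkv6-23 (8.11% in colon het library 1) and Igkv12-46 (7.02% in colon KO library 2). Igkv6-23 was also at its highest lamina propria value, 7.05%, in het library 1, where the other 8 sums lay between 1.60% and 4.56%. Igkv8-30 likewise reached 6.82% in colon het library 3 and 6.72% in lamina propria het library 3.

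Across genes, mean use in colon plasma cells and in lamina propria plasma cells ran closely together (Spearman's rho 0.916 over 87 genes, which are not independent replicates, given as a description). Between pairs of single sums the median rho was 0.429 in the colon (range 0.181 to 0.599, 36 pairs) and 0.671 in the lamina propria (0.574 to 0.827), whose sums hold more cells. Pairs that shared a genotype (median 0.428 in the colon and 0.657 in the lamina propria) stood no higher than pairs in general.

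By family, Igkv1 was the largest in colon plasma cells (17.9% ± 7.37) and lamina propria plasma cells (15.9% ± 2.31, SD, n = 9), through 7 used genes of 13. Igkv4, the family with the most genes (33), followed in both, at 13.6% ± 4.19 and 15.0% ± 2.02, spread over 18 and 21 used genes. Igkv6 took 12.2% ± 2.99 of colon plasma cells and Igkv10, with 3 genes, 12.3% ± 3.28. No plasma cell of either tissue was assigned to the single genes of families Igkv7, Igkv18 and Igkv20. Of the 59 annotated pseudogenes, 1 had assigned cells, Igkv14-126 (chr6:67896177-67896642), with 21 plasma cells in the lamina propria, 2 in the colon and 4 colon B cells.

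Kappa genes lie within 3170.2 kb of the constant gene Igkc. When that distance was cut into 3 equal segments, the nearest, middle and farthest held 37.1%, 30.8% and 32.0% of kappa-assigned plasma cells in the colon (SD 6.15, 4.15 and 5.98). The lamina propria values were 40.9%, 28.7% and 30.3% (SD 3.78, 2.98 and 2.74), with 53, 60 and 47 genes in the segments. Igkv10-96, at 2094.0 kb, stands just inside the middle segment and supplies much of its share. In colon B cells the middle segment held 13.9% by the 80% rule and 24.4% by the free RNA rule, so its size there depended on the rule, while both values lay below the plasma cell mean.

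**Figure D2:**
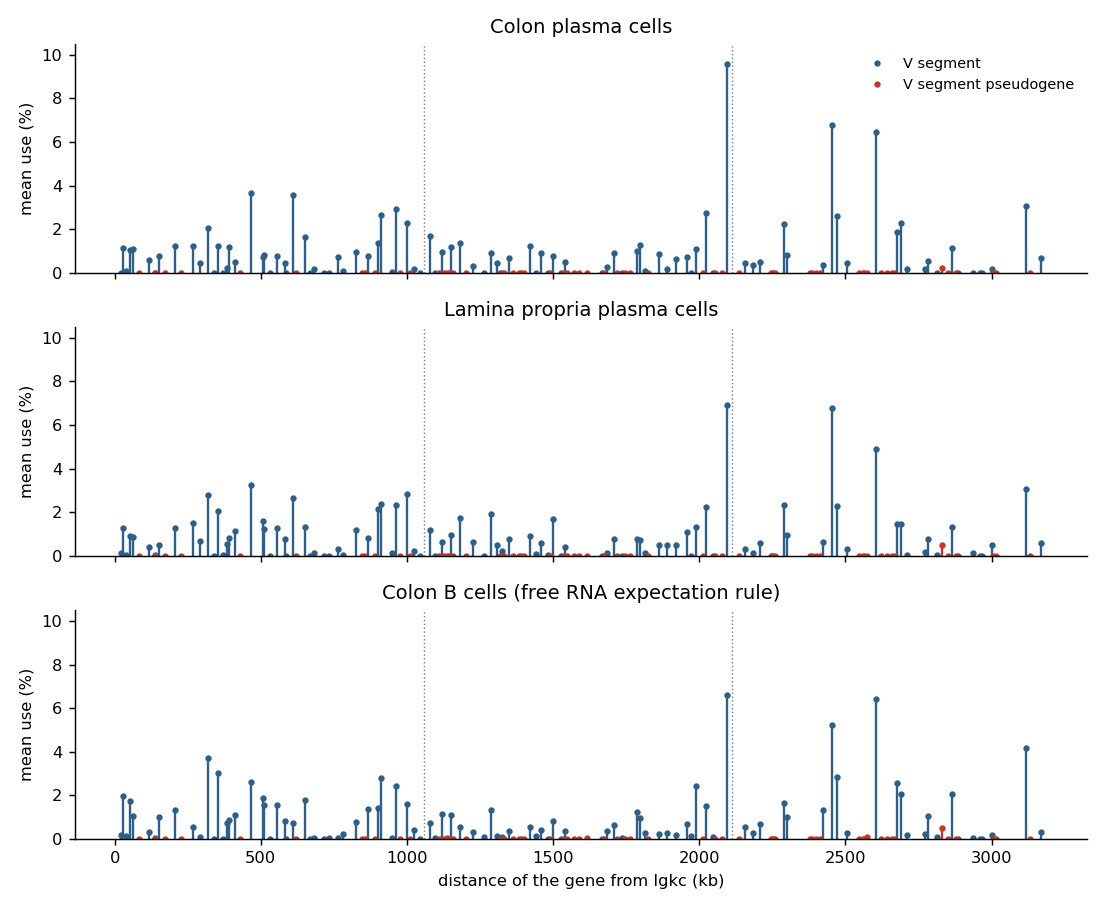
Mean use of each of the 160 kappa genes (vertical axis, percent, mean of 9 sums) against its distance from Igkc in kb, for plasma cells of the colon and lamina propria and for colon B cells by the free RNA rule, with dotted lines at the segment limits. The used genes recur at the same places in all 3 panels, and 1 pseudogene, Igkv14-126, stands visibly above 0.

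The 3 lambda genes together held a small share of assigned plasma cells, most of it through Iglv1. Iglv1 (chr16:19085017-19085460) was assigned in 24 colon plasma cells and 158 lamina propria plasma cells. Its use was 0% in the lowest, 2.17% in the median and 4.14% in the highest colon sum, and 1.68%, 2.95% and 6.64% in the lamina propria. Iglv2 (chr16:19260403-19260844) had 1 and 7 such cells, and Iglv3 (chr16:19241208-19241679) had 2 and 6. The lambda share of all 3 genes was 2.21% ± 1.45 in colon and 3.64% ± 1.72 in lamina propria plasma cells (SD, n = 9 each). The 2 tissues overlapped, and the difference of -1.42 percentage points did not pass a two-sided exact permutation test (p = 0.0750, adjusted p = 0.375 over 5 lambda comparisons), which treated the sums as unpaired. The same exact test gave unadjusted p = 0.0483 with the free RNA rule and p = 0.0312 with gate genes at 3 UMIs. The colon het sum of library 2 had no lambda cell among 62, which allows a share of up to 4.84% (3 counts, counting error only).

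Constant gene UMIs, which the assignment did not use, matched the assigned class. Among 5776 plasma cells assigned a kappa gene, 99.9% had more Igkc than lambda constant UMIs, with a median of 853.0 Igkc UMIs. Among 182 Iglv1 cells the median was 575.5 Iglc1 UMIs against 11.0 Igkc UMIs, and Iglc1 led in 165 and Iglc3 in 17. Iglc2 led in 7 of 8 Iglv2 cells and in 7 of 8 Iglv3 cells. Iglc2 and Iglc3 are near-identical copies, so their split by the aligner is uncertain. Igha was the leading heavy constant gene in 98.0% of assigned colon plasma cells and 99.8% of those of the lamina propria. The 30 assigned plasma cells led by another class were spread over V genes, with at most 3 for any gene (Igkv1-110 and Igkv1-117).

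Some plasma cells held 2 light chain V genes, each with at least 20% of the V UMIs: 144 (11.2%) in the colon and 1262 (19.4%) in the lamina propria. Of these, 61.8% and 75.1% also held 2 heavy chain V genes by the same measure, against 1.81% and 2.36% of assigned cells. Their median depth was 33410 and 21594 UMIs against 22917 and 10873. No doublet caller was run, and the 80% rule leaves such cells out of all use values.

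The comparison of KO with WT asked whether loss of the sialyltransferase shifts V gene use. In colon plasma cells 94 of the 163 genes passed the filter on low counts, and edgeR's quasi-likelihood test with library as a block called 1 of them (Benjamini-Hochberg adjusted p under 0.05), beside 0.0982% of the 9167 genes tested. That gene was Igkv11-125 (chr6:67913573-67914052), with 0, 192 and 45 UMIs in the KO sums of libraries 1 to 3, 0, 8 and 3 in the het sums and 0, 11 and 0 in the WT sums. KO over WT gave 4.67 on the log2 scale (SE 0.43, adjusted p = 0.00131) and KO over het gave 3.62 (SE 0.42, adjusted p = 0.0114), the 1 V gene called in that comparison (all genes, 0.0545%). KO was at 0 in library 1 like the other genotypes. No colon plasma cell was assigned to Igkv11-125, so in none did it reach both 3 UMIs and 80% of the light chain V UMIs. In lamina propria plasma cells it stood at 309.2, 215.7 and 315.7 CPM in KO, het and WT of library 2. The other libraries there were uneven, with 0, 1735 and 7 UMIs in KO, het and WT of library 1 and 2552, 8 and 21 in library 3. CPM of V genes by sum are scaled to totals adjusted by TMM (edgeR's library scaling) within each tissue and cell class, unlike the plain CPM given for St8sia6 and for markers. The KO to WT call was absent without the replicate block (adjusted p = 1.0), with DESeq2 (0.979) and with cells of both gates kept (0.0511), and no value for it came from the stricter hashtag rule (cells kept where 80% or more of hashtag UMIs were of 1 kind). Leaving out a library gave other counts of called V genes: 9 without library 1 and 4 without library 2 or 3. The share of all genes called in those fits is not given.

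All other V genes missed the threshold in colon plasma cells. Igkv17-121 (chr6:68036818-68037318) was used by 5.33%, 5.26% and 0.948% of KO cells, 1.35%, 3.23% and 3.41% of het cells and 0%, 1.18% and 0% of WT cells in libraries 1 to 3. KO exceeded WT within each library but overlapped it through library 3, and its summed RNA gave 1.71 on the log2 scale (SE 0.81, adjusted p = 1.0). Lamina propria use of the gene was 1.64% ± 0.172 in KO and 1.25% ± 0.493 in WT (SD, n = 3), again overlapping. Igkv1-110 was used by 4.14%, 2.63% and 5.69% of KO and 8.06%, 4.73% and 14.1% of WT colon plasma cells, lower in KO within each library but overlapping, with a log2 ratio of -1.05 (SE 0.37, adjusted p = 1.0). Igkv10-96 in lamina propria plasma cells took 7.09%, 3.87% and 6.87% in KO and 7.18%, 8.11% and 11.6% in WT. These 2 groups did not overlap in use, yet the log2 ratio of -0.36 (SE 0.24) had an adjusted p of 0.666.

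No V gene was called in lamina propria plasma cells, where 107 were tested. The counts at an unadjusted p under 0.05 were 5 for KO against WT, 6 for het against WT and 4 for KO against het. Of all 11455 genes tested, 1356, 1311 and 543 were under that unadjusted p. DESeq2 called 5, 3 and 1 V genes. Without library 1 edgeR called 8 in each of these comparisons, without library 2 it called 2, 4 and 1, and without library 3 it called 2, 1 and 2. All genes were called at 0.707%, 0.262% and 0.0349% in these comparisons by edgeR with all libraries. Their shares by DESeq2 or without a library are not given. For het against WT in colon plasma cells edgeR also called no V gene (4 at an unadjusted p under 0.05, 6 by DESeq2, all genes 0.0436%). Of the 9167 genes tested there, 428 were under that unadjusted p. The spread of V gene ratios was wide: over V genes the log2 ratios for KO against WT had an SD of 3.66 against 0.59 over all genes in the colon, and 2.12 against 0.45 in the lamina propria. Median log2 ratios were 0.15 for V genes and 0.00 for all genes in the colon, and -0.08 and 0.01 in the lamina propria.

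Colon B cells gave the same picture with narrower spread. Of 89 V genes tested, edgeR called none for KO against WT (5 at an unadjusted p under 0.05, 1 by DESeq2, all genes 0.0548%). For KO against het it called none either (12 at that unadjusted p, 2 by DESeq2, all genes 0.0456%). Of the 10957 genes tested, 597 and 760 were under the unadjusted p in these 2 comparisons. For het against WT edgeR called 1 (all genes 0.593%), Igkv17-121, at 199.5, 282.7 and 218.1 CPM in het, 155.2, 171.4 and 105.2 in WT and 125.6, 201.6 and 111.7 in KO. Het lay above WT in each library, with a log2 ratio of 0.70 (SE 0.12, adjusted p = 0.0347). The call was lost without library 2 (0.112) or library 3 (0.133), with cells of both gates kept (0.994) and without the replicate block (0.687). In lamina propria B cells none of 65 V genes was called in any of the 3 comparisons by edgeR (all genes 0%, 0% and 0.0188%, with 13, 9 and 5 V genes at an unadjusted p under 0.05) or by DESeq2. Of the 5313 genes tested there, 185, 211 and 149 were under that unadjusted p. The interaction of tissue and genotype in plasma cells called none of 108 V genes (5 unadjusted beside 504 of all 11635 genes, 4 by DESeq2, all genes 0%).

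The summary measures by genotype overlapped as well, apart from the top share (KO below het in both tissues, and below WT in the lamina propria). The effective number of V genes (the inverse chance that 2 assigned cells share a gene) was 35.3, 33.0 and 39.4 in KO, 32.9, 35.0 and 25.0 in het and 25.0, 43.0 and 21.0 in WT colon plasma cells. The lamina propria values were 34.6, 40.1 and 38.6 in KO, 32.9, 42.0 and 33.5 in het and 38.4, 33.3 and 29.6 in WT. WT libraries thus held both the highest and the lowest colon value, and each WT value mixes 2 animals. The share of the most used gene was 8.09% ± 1.27 in KO and 12.0% ± 4.78 in WT in the colon, and 6.97% ± 0.12 and 9.09% ± 2.25 in the lamina propria (SD, n = 3). The highest KO value there, 7.09%, lay just below the lowest WT value, 7.18%. In colon plasma cells the top share was 8.88%, 8.77% and 6.635% in KO and 10.8%, 11.3% and 12.5% in het. In the lamina propria it was 7.09%, 6.85% and 6.97% in KO and 7.5%, 7.49% and 7.91% in het. KO thus lay below het in both tissues, which was not tested. Under the stricter hashtag rule the difference of KO and WT turned: the effective number fell by 3.52 in the colon and by 5.63 in the lamina propria, and the top share was 2.25 and 3.23 percentage points higher in KO. That rule left 593 of 1103 assigned plasma cells in the colon and 2803 of 4871 in the lamina propria. Lambda shares did not differ beyond their spread, at 2.31% ± 1.53 and 3.11% ± 1.41 in the colon (two-sided exact permutation p = 0.6) and 4.35% ± 2.49 and 3.31% ± 0.32 in the lamina propria (exact p = 0.7). With 3 sums against 3 that test cannot go below 0.1.

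**Figure D3:**
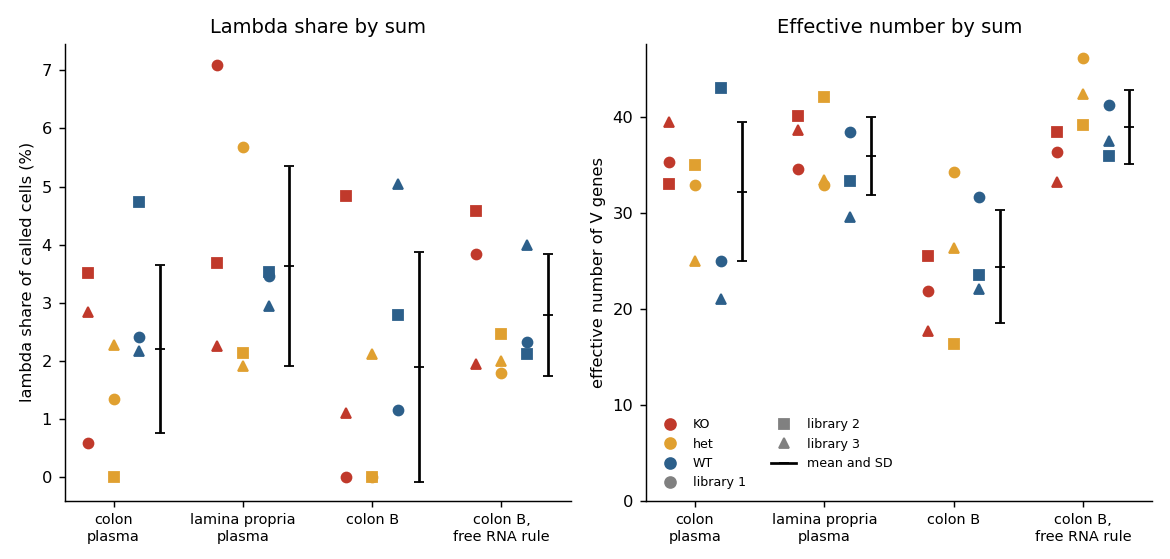
Lambda share of assigned cells (left, percent) and effective number of V genes (right) in each of the 9 sums of colon and lamina propria plasma cells and of colon B cells by both assignment rules, with genotype as colour, library as marker and the mean with its SD as a black bar. KO and WT overlap in every column, and the colon B cell level in the right panel shifts from 24.4 to 38.9 on average with the rule.

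The comparison of colon with lamina propria plasma cells asked where V gene RNA differs between the tissues. In summed RNA (model with genotype and tissue, 18 sums) 16 of 108 V genes were called, 8 higher and 8 lower in the colon. Of all 11635 genes tested, 55.5% were called. The 18 sums were treated as unpaired, although both tissues came from the same mice and sums of the same number and genotype shared V pairs most often (values below). A paired fit was not run. The V genes' log2 ratios had a SD of 2.16 against 0.99 over all genes. Igkv10-96 was higher in the colon by a log2 ratio of 0.98 (SE 0.17, adjusted p = 1.5e-04), with sums of 14640 to 27900 CPM against 7316 to 15360, each tissue scaled separately. Igkv6-23 (1.06, SE 0.33, adjusted p = 0.0141) and Igkv12-46 (1.11, SE 0.41, adjusted p = 0.0336) were called in the same direction. Under the stricter hashtag rule none of the 3 was called (adjusted p of 0.105, 0.120 and 0.331). Igkv6-23 also lost its call without colon library 1 (0.0895) or lamina propria library 2 (0.0808) or 3 (0.0733), and Igkv12-46 without colon library 1 (0.155) or any lamina propria library (0.0596 to 0.127). The larger share of UMIs that colon plasma cells give to light chain V genes as a whole moves with these ratios, and its part was not tested. In use, which is free of that total, Igkv6-23 stood at 3.64% and 3.23% and Igkv12-46 at 2.91% and 2.33%, within 1 SD of each other.

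Outside the naming rule for this comparison, and chosen after their values were seen, 3 further abundant genes were called higher in the colon. These were Igkv1-110 (0.58, SE 0.22, adjusted p = 0.0385), Igkv12-44 (0.71, SE 0.25, adjusted p = 0.0265) and Igkv17-121 (0.92, SE 0.35, adjusted p = 0.0399). Another 3 were called lower: Igkv3-1 (-2.92), Igkv4-56 (-3.11, with 3 and 118 UMIs) and Igkv4-69 (-2.96). Use of Igkv1-110, given above, was nearly equal in the tissues. The mean light chain V share of plasma cell UMIs, 29.4% in the colon and 19.2% in the lamina propria, moves with the 3 higher ratios too. Its part was not tested.

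The remaining genes named by the rule were scarce or uneven. Igkv4-51 was higher in the colon (6.29, SE 2.49, adjusted p = 0.0448), through 2230 CPM in het library 1 and 1097 in KO library 3, while 2 of the 9 colon sums were at 0 and the rest at no more than 127.9. Igkv4-78 followed (1.91, SE 0.77, adjusted p = 0.0471) at no more than 28.5 CPM. Igkv4-62 was lower in the colon (-7.01, SE 1.37, adjusted p = 5.3e-04), with 42 UMIs there and 21581 in the lamina propria, and 0 against 9 assigned cells. Igkv3-9 (-5.73, SE 1.71, adjusted p = 0.0105) and Igkv11-125 (-4.62, SE 1.54, adjusted p = 0.0195) were lower too. They had 0 assigned cells in the colon and only 1 and 2 in the lamina propria. Over the lamina propria sums Igkv3-9 had a median of 5.75 and a maximum of 488.8 CPM, and Igkv11-125 of 192.5 and 315.7. Igkv4-61 was called lower by the fit (-4.98, SE 1.98, adjusted p = 0.0453), but its pooled UMIs ran the other way, at 1289 plain CPM in the colon against 902.8. The KO sums of the colon held 7682, 742.1 and 382.0 CPM of it and the other 6 no more than 29.1, against 324.7 to 1970 in the lamina propria. No direction is drawn for this gene, the only one of the 16 called whose pooled and fitted directions differ. Igkv1-132 had 0 UMIs in colon plasma cells and 1978 in those of the lamina propria, at least 225.9-fold lower in the colon against a floor of 3 counts over the group. WT library 3 of the lamina propria held 1237 of these UMIs (182.2 CPM), and without that sum the bound is at least 92.4-fold. In all, 3 of the 9 sums there were at 0. Its call (adjusted p = 0.0467) was lost without any 1 library. Igkv4-78 was lost on leaving out any library (0.0526 to 0.181), Igkv4-51 without colon library 1 (0.137) or 3 (0.0928) or any lamina propria library (0.118 to 0.187), and Igkv3-9 and Igkv4-61 without colon library 2 (0.0832 and 0.212) or 3 (0.0824 and 0.271). Igkv11-125 was lost without colon library 1 (0.0911) or 3 (0.101) or lamina propria library 2 (0.111). Igkv4-62 was the gene of these whose call held in all alternatives run. Without lamina propria library 2 the count of called V genes was 7 (1 higher and 6 lower), and without library 3 it was 9 (2 and 7). The share of all genes called in those fits is not given.

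Light chain constant genes differed between the tissues in the direction opposite to the V share. Of 13 constant and joining genes listed, 4 were tested, and 3 of these were lower in colon plasma cells: Igkc by a log2 ratio of -1.70 (SE 0.10, adjusted p = 1.4e-09), Iglc1 by -1.90 and Iglc2 by -0.93. Of all genes, 55.5% were called in this comparison. Colon plasma cells thus had more V and fewer constant region UMIs of the same class of transcript. Median depth was 22488 to 24176 UMIs per plasma cell in the colon libraries and 10886 to 11848 in the lamina propria, and the part of depth or of library chemistry in that shift was not tested. By genotype none of these 4 constant genes was called in plasma cells of either tissue in edgeR. Of 8 heavy constant genes, Ighg3 was higher in KO than WT colon plasma cells (4.49, SE 0.70, adjusted p = 0.0259, beside 0.0982% of all genes called). Het against WT gave 4.69 for it (adjusted p = 0.0450, all genes 0.0436%). No assigned plasma cell of either tissue was led by Ighg3, and its UMIs by sum are not given. Of the surrogate light chain and recombination genes 1 of 7, Vpreb3, could be tested in any comparison.

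In B cells the tissue comparison called 34 of 85 V genes, 1 higher and 33 lower in the colon, beside 52.7% of all genes. Beside this stand the V share of T cells given above and the plasma cell marker UMIs in the B cell sums (1682 to 2911 CPM in the colon against 15134 to 38362), whose part was not tested. With gate genes at 3 UMIs the count became 7, all higher in the colon, so no direction is drawn. Single lamina propria B cell sums were dominated by single genes: Igkv6-23 stood at 7441 CPM in het library 3 and 5189 in WT library 1, against 123.8 to 467.3 in the other 7. Igkv4-57-1, Igkv3-9 and Igkv5-37 were among the 5 called lower with the largest ratios (-4.65, -6.07 and -4.69), with Igkv4-62 and Igkv4-70. Igkv4-79 was the gene called higher (3.49, SE 1.18, adjusted p = 0.0188), but with cells of both gates kept its ratio was -1.997.

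Within the colon, plasma cells and B cells shared their leading genes. Igkv1-117 (12.3% ± 4.89 by the 80% rule and 6.44% by the free RNA rule), Igkv1-110 (7.14% ± 2.27 and 5.21%) and Igkv10-96 (6.99% ± 2.45 and 6.62%) were the first 3 kappa genes of B cells by both. Igkv12-44, Igkv6-15, Igkv1-135, Igkv17-127, Igkv6-23, Igkv14-111 and Igkv9-120 completed the first 10 by the 80% rule, from 5.63% down to 2.75%. Mean use in colon plasma cells and colon B cells had a Spearman's rho of 0.696 over 81 genes by the 80% rule and 0.863 over 96 genes by the free RNA rule, as a description across genes. In V gene UMIs, a measure unlike use, colon T cells had a rho of 0.944 with plasma cells and 0.952 with B cells. Pearson's r was 0.549 and 0.533. T cells make no light chain, and the part of free RNA in the likeness of plasma and B cells was not tested. Igkv8-30 (chr6:70117061-70117617) stood out among the named genes. It was used by 3.57% of colon plasma cells, 2.65% of lamina propria plasma cells and 0.351% of colon B cells. Plasma exceeded B cells in 9 of 9 sums by the 80% rule and in 8 of 9 by the free RNA rule (mean differences 3.22 ± 2.23 and 2.82 ± 2.22 percentage points, SD). Igkv6-15 lay the other way, at 2.07% of plasma and 5.29% of B cells, with plasma higher in 1 of 9 sums, and in 2 of 9 by the free RNA rule (3.69% of B cells).

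The summary measures for plasma against B cells turned on the rule. The effective number was 32.2 ± 7.21 in plasma and 24.4 ± 5.89 in B cells (SD, n = 9), but 38.9 ± 3.86 in B cells by the free RNA rule, so that the difference went from 7.84 to -6.80. Lambda shares were 2.21% ± 1.45 and 1.90% ± 1.98 (two-sided exact paired permutation p = 0.547), and 2.79% ± 1.05 in B cells by the free RNA rule. No order of the 2 cell classes is therefore given for either measure.

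**Figure D4:**
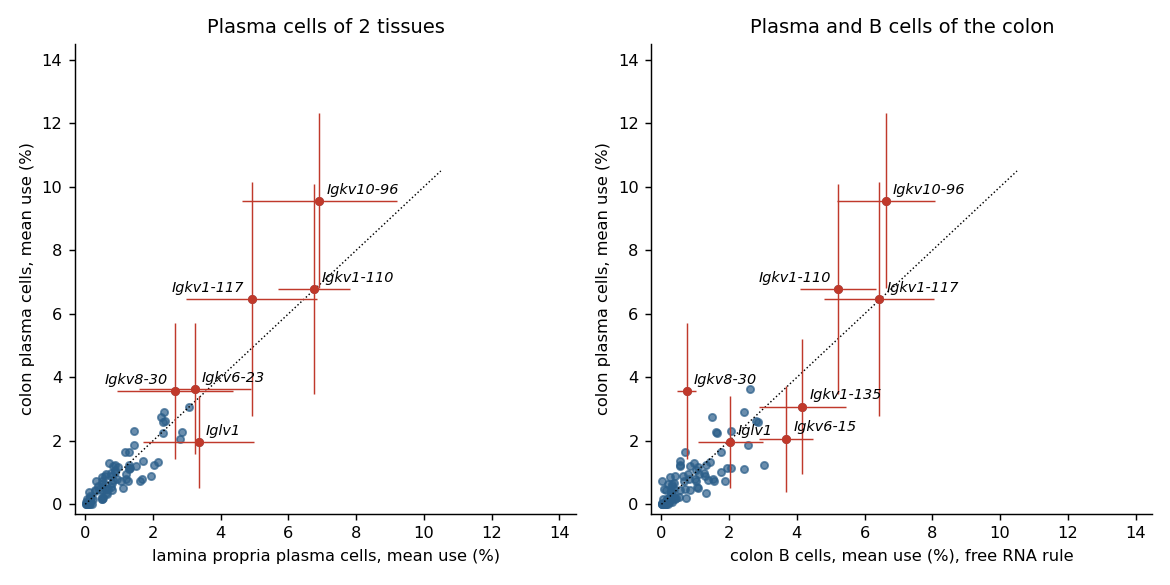
Mean use (percent) of each light chain V gene in colon plasma cells against lamina propria plasma cells (left) and against colon B cells by the free RNA rule (right), with the SD over 9 sums for labelled genes and a dotted line of equal use. Most genes lie near the line, and Igkv8-30 lies above it in the right panel, at 3.57% of plasma and 0.744% of B cells.

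Light chain V genes were also read together with the heavy chain V gene assigned to the same plasma cell, which the selection of genes did not use. A pair was had for 5747 plasma cells, in 1858 distinct combinations. Of these, 1054 occurred in a single sum and 19 in 10 or more of the 18 sums, led by Igkv1-117 with Ighv1-53 (15 sums, 24 cells) and Igkv1-110 with Ighv1-81 (14 sums, 68 cells). Cells in pairs seen at least 2 times within their sum made up 9.68% to 46.4% of colon and 48.5% to 72.0% of lamina propria cells, and this share moves with the number of cells per sum. The most frequent pair in KO library 1 of the lamina propria was Iglv1 with Ighv1-26 (18 of 416 cells), the sum with the highest lambda share (7.09%).

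Pairs of a light and a heavy chain V gene recurred between the tissues of the same genotype and library number. The overlap index (Morisita's index, 0 for no shared pairs and about 1 for samples of 1 common mix) between a colon and a lamina propria plasma cell sum was 0.423 to 0.737 (median 0.544) in the 9 comparisons with the same number and genotype. It was 0.115 to 0.368 (median 0.222) in 18 with the same number and another genotype. With another number it was 0.151 to 0.467 (median 0.262) in 18 of the same genotype and 0.128 to 0.569 (median 0.231) in 36 of another genotype. The same number and genotype gave the highest index for 8 of 9 colon sums. A median of 52.8% of colon plasma cells carried a pair also seen in the matching lamina propria sum, against 22.6% to 24.1% for the other 3 kinds. The light chain V gene alone did not separate them, with medians of 0.944 for matching sums and 0.882 to 0.908 otherwise.

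Library numbers come from the barcode endings of each tissue, and the labels do not say that equal numbers stand for 1 run. Cell barcodes shared between the tissues numbered 61 to 85 for equal library numbers and 56 to 90 for unequal ones, over all cells and genotypes of a library. They were not counted by genotype or among plasma cells alone. The cause of the overlap was not tested.

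**Figure D5:**
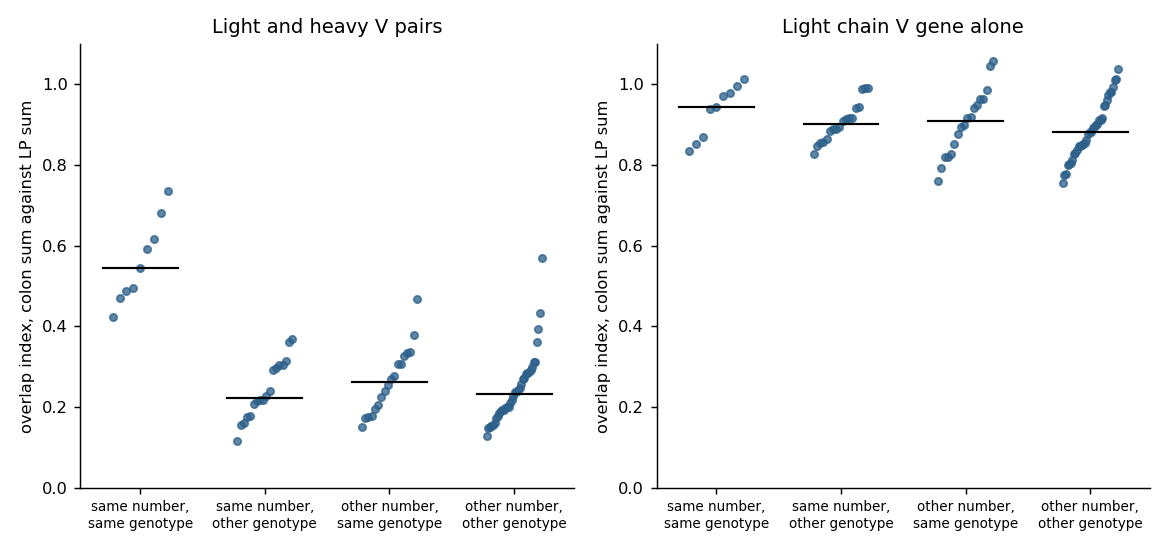
Overlap index between each of the 9 colon and each of the 9 lamina propria plasma cell sums for light and heavy V pairs (left) and for the light chain V gene alone (right), grouped by whether library number and genotype match, with a line at the median. For pairs, the matching sums (0.423 to 0.737) lie above most others; for the light chain alone the 4 kinds overlap.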

How the data were processed

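The deposited gene expression and hashtag values are raw UMI counts per feature and cell, which the authors made with Cell Ranger and Seurat on mm10, per the submitters' processing notes (versions not given in the sources used here). The deposited names of genes and barcodes carry no measurement. Cells outside 200 to 8000 genes or 300 to 50000 UMIs, or at 20% mitochondrial counts or more, were dropped after the series' design text, which removed 401 colon, 253 lamina propria and 280 epithelium cells. UMIs were summed per library, genotype and cell class, with 1749381 to 5880248 UMIs per colon plasma sum, 6831794 to 14291436 per lamina propria plasma sum, 1210207 to 9851737 per colon B sum and 138533 to 537179 per lamina propria B sum.

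Sums were tested with edgeR 4.0.16 (R 4.3.3, limma 3.58.1; TMM, filterByExpr, glmQLFit and glmQLFTest, with library as a block for genotypes), adjusted over all genes, with DESeq2 1.42.0 as an alternative. The block was used because the genotypes of a library were pooled before capture; deviations of sums of 1 library correlated at -0.05 to 0.056 in colon plasma cells and at 0.061 to 0.342 in colon B cells. CPM of V genes by sum use TMM-scaled totals within each tissue and class; those of St8sia6 and markers use plain totals. Shares were tested by exact permutation (scipy 1.17.1, numpy 2.4.6, pandas 2.3.3, Python 3.11.15); figures used matplotlib 3.10.9. Intervals and limits from counts cover counting error only. On simulated data with 9296 genes, KO against WT in colon plasma cells recovered 31 of 100 genes changed 2-fold and 93 of 100 changed 4-fold, with 6 false among 130 calls. The simulation gave every gene the same dispersion, had no library effect and changed genes drawn at random. In the data the log2 ratios of V genes had an SD of 3.66 against 0.59 over all genes. These recovery rates therefore cannot be carried over to V genes. No doublet caller was run.

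Genes named are all Iglv genes, the 10 Igkv genes with the highest mean use per tissue and class, the 5 with the highest use in any plasma sum, and up to 5 called per direction and comparison. The genes, lists and tests were chosen with earlier results of these data known, and the free RNA rule after seeing the call rates. The sums come from 3 independent runs, per the series' design text, and WT sums pool 2 mice. Some results on marker and list genes are not reported here.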

Additional observations from a re-analysis of the deposited data

Results flagged for a closer look

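Plasma gate cells of the small bowel epithelium, a tissue outside the comparisons, also carried light chain V genes: 67 of 72 were assigned one by the 80% rule, with Igkv1-110, Igkv10-96 and Igkv6-15 at 6 cells each. Lambda genes took 3 of the 67 (4.48%, exact Clopper-Pearson 95% interval 0.93% to 12.5%). Among 424 B gate cells there, 321 were assigned, led by Igkv10-96 (21), Igkv6-23 (16) and Igkv1-117 (15). Single groups hold 3 sums, too few for a test of outlying samples.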

How the results depend on the processing

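Counts of called V genes depended on the settings, and the cause was not tested. The share of all genes called is given for the main edgeR fits only. The counts here and in the next paragraph are therefore not read as results about V genes. With DESeq2 they were 4, 6 and 6 in colon plasma cells (KO against WT, het against WT and KO against het, in this order throughout), 5, 3 and 1 in lamina propria plasma cells, 1, 2 and 2 in colon B cells and 4 for the interaction. Without the filter on low counts, which adds genes at few UMIs, they were 4, 2 and 3, then 1, 1 and 1, then 2, 10 and 9, and 3, 3 and 2 in lamina propria B cells, with 9 (plasma) and 64 (B) between tissues. Without the replicate block KO against WT and KO against het in colon plasma cells and het against WT in colon B cells had 0 calls, and no other comparison moved by over 1.5 times. The same 3 had 0 with cells of both gates kept, which left 10 and 17 between tissues and Igkv4-79 at -1.997, and 0 with the hashtag share rule. That rule also gave 1 and 5 in colon B cells (KO against WT and KO against het), 1 and 1 in lamina propria B cells and 16 between tissues in B cells. Gate genes at 3 UMIs gave 1 for KO and 1 for het against WT in lamina propria plasma cells, 2 and 1 in B cells there and 7 between tissues in B cells.

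Leaving out each library gave 4 to 9, 2 to 6 and 2 to 3 in colon plasma cells, 2 to 8, 1 to 8 and 1 to 8 in lamina propria plasma cells, 0 to 2, 0 to 3 and 0 to 1 in colon B cells, 0 to 1 in each lamina propria B comparison, 7 to 16 and 21 to 31 between tissues and 0 to 1 for the interaction.

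The lambda difference of plasma and B cells turned to -0.923 with UMI shares, -0.687 with the free RNA rule, -0.00711 with gate genes at 3 UMIs, -0.898 with the top gene at 50% and -0.0628 without library 1 (range to 0.637). For KO against WT in colon B cells it turned to 0.621, 0.640 and 0.241 with UMI shares, the free RNA rule and the top gene at 50%, and to 0.446 without library 3 (range from -2.54). In lamina propria plasma cells it was -0.269 without library 1 (range to 1.89), and in colon plasma cells -1.53 to -0.278. Between tissues it was -1.54 and -1.82 with the free RNA rule and gate genes at 3 UMIs, and -2.06 to -0.537 when a library was left out.

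The effective number for KO against WT was -3.52 (colon plasma) and -5.63 (lamina propria plasma) with the hashtag rule, and 0.105 (lamina propria plasma) and 5.28 (colon B) with UMI shares. Plasma against B cells gave -6.63 with UMI shares and -6.80 with the free RNA rule. The top share for KO against WT was 2.25 and 3.23 in colon and lamina propria plasma cells with the hashtag rule, -0.132 in lamina propria plasma cells and -3.71 in colon B cells with UMI shares, and in colon B cells 0.252 with the free RNA rule and -0.210 with the top gene at 50%. With a library left out the effective number ranged from 0.162 to 14.4, 1.497 to 7.95 and -7.11 to -1.24 for KO against WT in colon plasma, lamina propria plasma and colon B cells, 4.15 to 10.8 for plasma against B cells and -6.09 to -1.83 between tissues. The top share ranged from -6.97 to -2.09, -3.13 to -0.878, 2.07 to 5.73, -4.15 to -1.09 and 2.07 to 3.48 in the same order.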

Other observations

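Outside the named genes, Igkv6-17 and Igkv2-109 were chosen after their values were seen. By the free RNA rule Igkv6-17 was used by 1.24% of colon plasma cells and 3.03% of colon B cells, lower in plasma cells in 8 of 9 sums. Igkv2-109 took 0.347% and 1.33%, also lower in 8 of 9. Igkv11-125 RNA was uneven between libraries in every genotype: colon B cells of library 2 held 27.1, 22.6 and 19.5 CPM in KO, het and WT, and the other 6 sums held at most 3.52.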
